A study of Macaca mulatta with 144 samples.

Results

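The NHPs given the highest radiation dose (RD) of the series, 8.5 Gy, were followed from before irradiation to day 6 by small RNA sequencing of serum. These libraries were chosen by their label for RD alone and made up 24 of 144 libraries, from 6 of 36 NHPs. The animals were 3 males (RA2685M, RA2475M and RA2318M) and 3 females (RA2742F, RA2116F and RA2743F). By the labels all of them died within the follow-up except RA2743F. Each animal gave 1 library at each of 4 times, labelled Preradiation, Day1, Day2 and Day6, so every change is an animal compared with itself. All were naive rhesus macaques (Macaca mulatta) of the Chinese sub-strain, exposed once to the whole body with cobalt gamma rays and given full supportive care, with the blood samples drawn before any transfusion. Ages of single animals are not given in the sources used here, and no unirradiated animals were followed alongside, so the passage of time, handling and repeated bleeding cannot be told apart from irradiation. The other 30 NHPs received 5 lower RDs under the same sampling and are used for comparison with 8.5 Gy. Their libraries also enter the detection filter and the scaling of all libraries. A pair of them, 1 library of RA2265F and 1 of RA2694M, is identical, and both were kept in the values of the other 30 NHPs.

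MicroRNAs (miRNAs) are short RNAs that bind messenger RNAs through their seed and repress them. In serum they are carried by vesicles and proteins, and most come from blood cells, above all from red blood cells and their precursors, with smaller contributions from endothelium and solid organs. Total body irradiation (TBI) at lethal doses destroys dividing marrow and lymphoid cells and injures the intestinal lining, so serum miRNAs typical of these cells are followed as readouts of time since irradiation (TSI).

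The 24 libraries held 14330 to 2893988 counts (median 296227) and 60 to 421 detected miRNAs (median 312.5), against a median of 278363 counts and 269 miRNAs in the 120 libraries of the other RDs. Of all miRNAs listed, 549 were detected at 8.5 Gy, and the 290 detected in 40% or more of the 144 libraries were tested. miR-486-5p, a red blood cell miRNA, accounted for 74.9% of the counts in the median library (38.1% to 90.8%). It was followed by miR-92a-3p with 5.77%, miR-10b-5p with 3.58% and miR-22 with 3.37%. The median library thus gave most of its counts to a single red blood cell miRNA, and all other miRNAs shared the rest. 3 libraries stood apart with fewer than 100 detected miRNAs: RA2742F on day 1 (86 miRNAs, 80610 counts), RA2116F on day 2 (65 miRNAs, 14330 counts) and RA2743F on day 6 (60 miRNAs, 19254 counts). Levels are CPM scaled by TMM factors (TMM CPM), that is, counts relative to the total of a library corrected for its composition. The level that 3 counts represent, which a count of 0 cannot exclude, was 0.812 to 929 TMM CPM over the 24 libraries with a median of 4.6, and in those 3 libraries it was 124, 929 and 528. A count of 0 there therefore says little about a miRNA that stood below these levels. The pre-irradiation and day 1 libraries of RA2318M were also small (43377 and 44928 counts, 166 and 181 miRNAs). In them 3 counts stood for 78.4 and 45.7 TMM CPM, and every change of this animal is taken from the first. Such limits cover counting error only. None of 12 tests of library measures (total count, miRNAs detected, share of miR-486-5p and a haemolysis score, each day against pre-irradiation) passed adjustment. With 6 animals a pass would need most of the 12 to reach the smallest possible exact p, so this leaves changes in depth undecided. The tests of the score include RA2742F on day 1 and RA2743F on day 6, whose values do not measure haemolysis. The smallest exact sign-flip permutation p was 0.0938 (adjusted p = 0.688), for the share of miR-486-5p on day 1, whose mean change was -10.1 ± 10.4 percentage points (SD, n = 6) and which was lower in 5 of 6 animals.

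**Figure D1:**
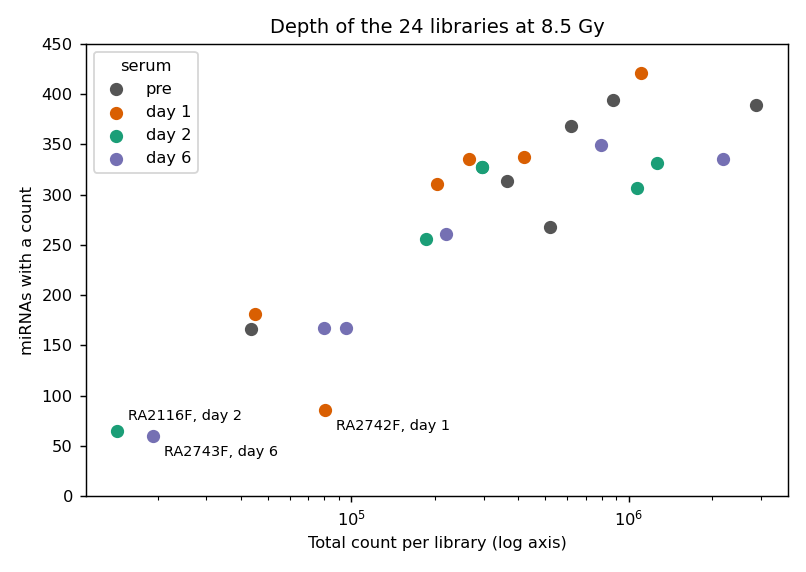
Total counts (x axis, log scale) against the number of detected miRNAs (y axis) for the 24 libraries at 8.5 Gy, with the time point as colour. The 3 named libraries hold 60 to 86 miRNAs, and detection rises with depth over the remaining libraries.

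On day 1 a single miRNA passed the test. miR-375, an miRNA abundant in pancreatic islets and other endocrine cells, rose above its pre-irradiation level. The level of miR-375 before irradiation was 26.1 TMM CPM at the lowest, 56.9 at the median and 130 at the highest of 6 animals. On day 1 it was 0, 649 and 5720 TMM CPM. The value was highest in RA2743F (5720) and RA2685M (2790), then in RA2475M (685), RA2116F (613) and RA2318M (167). All of these lay above the whole pre-irradiation range. The 0 came from RA2742F, where 3 counts stood for 124 TMM CPM, so that a count of 0 allows a level of up to this value. The fitted change was 4.22 on the log2 scale (SE 0.92, 95% interval 2.35 to 6.09, 18.7-fold), with edgeR adjusted p = 0.0192. This 1 call among 290 miRNAs tested is 0.345% of them. The mean change over the 6 animals on log2(TMM CPM + 1) was 2.42 ± 4.14 (SD), with 5 higher and 1 lower, and the exact sign-flip permutation test gave p = 0.188, where 0.0312 is the smallest p that 6 animals allow. The edgeR call was lost when RA2475M (adjusted p = 0.225), RA2685M (adjusted p = 0.234) or RA2743F (adjusted p = 0.269) was left out, with log2 changes of 4.26, 3.55 and 3.40. It held without the 3 libraries with fewer than 100 miRNAs, an alternative chosen after seeing the data (4.54, adjusted p = 0.000722).

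On day 2 miR-375 was at 0, 347 and 579 TMM CPM (lowest, median and highest), and RA2742F, RA2743F, RA2475M and RA2685M (233 to 579) lay above the whole pre-irradiation range, while RA2318M (131) lay at its upper end. The 0 was that of RA2116F, where it allows a level of up to 929 TMM CPM. The log2 change was 2.45 (SE 0.89) and did not pass (edgeR adjusted p = 0.717). On day 6 the levels were 0, 219 and 585 TMM CPM. RA2685M had come back to 56.6 TMM CPM from 58.8 before irradiation, RA2742F, RA2116F, RA2475M and RA2318M lay between 156 and 585, and RA2743F had a count of 0 in its shallow library. The day 6 change was 2.23 (SE 0.86, edgeR adjusted p = 0.54). The plot of single animals shows this miRNA beside others.

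**Figure D2:**
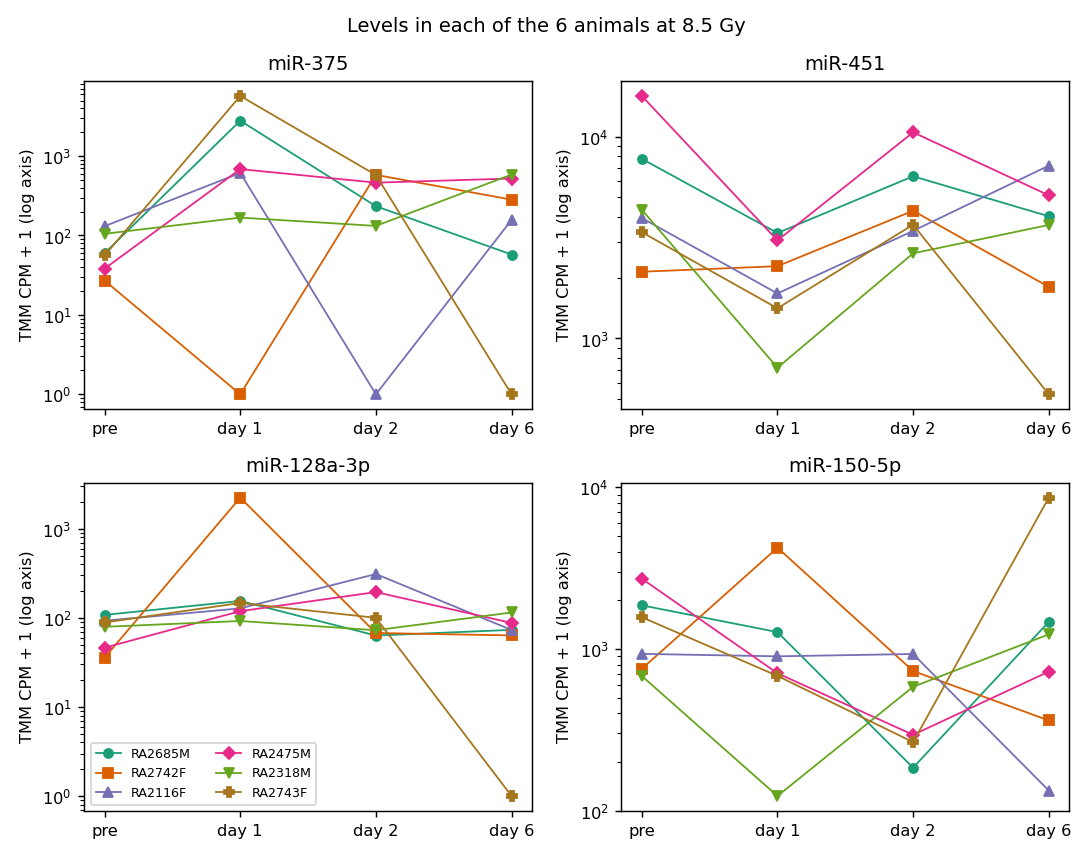
Levels in the 6 animals at 8.5 Gy (y axis, TMM CPM + 1, log scale) at each time point (x axis), 1 line per animal and 1 panel per miRNA. miR-375 rises from 26.1 to 130 TMM CPM before irradiation to as much as 5720 on day 1, and its 3 zeros are those of RA2742F on day 1, RA2116F on day 2 and RA2743F on day 6.

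No other miRNA passed on day 1. The next smallest p belonged to miR-183-5p, which had 1 to 3 counts in 5 of 6 libraries before irradiation and 0 in all 6 on day 1, and to miR-885-5p, a liver miRNA with a mean of 1.88 counts a library (log2 change 2.58, SE 0.86, edgeR adjusted p = 0.44). Neither had enough counts to be followed in single animals. miR-451, the next and a well-counted miRNA, which erythroid precursors produce abundantly, was at 2140, 4140 and 15900 TMM CPM before irradiation (lowest, median and highest of 6 animals) and at 715, 1980 and 3330 on day 1. It was lower in 5 of 6 animals, and the ranges overlapped between 2140 and 3330 TMM CPM. The fitted log2 change was -1.42 (SE 0.49, 0.374-fold, edgeR adjusted p = 0.44), and the mean change was -1.43 ± 0.97 (SD, n = 6, exact permutation p = 0.0625). DESeq2 called it (-1.57, adjusted p = 0.0193), as did edgeR without the 3 libraries with fewer than 100 miRNAs (-1.66, adjusted p = 0.0199). Over 17 alternatives its adjusted p ran from 0.0193 to 0.947 and the change from -1.71 to -1.11.

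miR-144, made from the same transcript as miR-451, had the same direction. Its levels were 221, 359 and 838 TMM CPM before irradiation and 41.5, 198 and 263 on day 1, lower in all 6 animals, with an overlap only from 221 to 263. The log2 change was -1.20 (SE 0.50) and the exact sign-flip permutation p = 0.0312, the smallest possible, but with edgeR adjusted p = 0.44. miR-16-5p, abundant in red blood cells and many others, was at 2140, 6880 and 22000 TMM CPM before irradiation and at 1430, 4110 and 5980 on day 1. It too was lower in all 6 animals, with a log2 change of -0.96 (SE 0.52, edgeR adjusted p = 0.614). By day 2 none of the 3 kept a change of this size, with log2 changes of -0.14 for miR-451, 0.29 for miR-144 and 0.01 for miR-16-5p. On day 6 miR-451 was lower in 5 of 6 animals and the others in 4 of 6, with log2 changes of -0.60 (SE 0.49), -0.35 (SE 0.52) and -0.59 (SE 0.54) and edgeR adjusted p of 0.876, 0.97 and 0.912.

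Among all 11 red blood cell miRNAs tested, 7 had a negative and 4 a positive change on day 1, with a median of -0.29 beside 0.01 for all 290. Of all 290, 142 were negative and 148 positive. None of the 11 passed the adjusted threshold and 4 fell below an unadjusted edgeR p of 0.05, all of them negative. Among all 290 it was 24, of which 13 were negative. The median was -1.05 without RA2742F. A haemolysis score (miR-451 over miR-23a-3p, as a log2 ratio) was 1.96 to 3.28 in the other 5 day 1 libraries and 2.91 to 5.69 in the 6 pre-irradiation libraries. That of RA2742F on day 1 is no measure of haemolysis, since miR-23a-3p had a count of 0 there and the pseudocount set the value. In bulk serum, fewer cells of a type and less RNA released per cell cannot be told apart. The part of haemolysis during bleeding in these values was not tested. A fit with the score as a covariate was among the alternatives, but the score contains miR-451 itself and the unusable value of RA2742F. The list was at a median of 0.12 on day 2 and 0.01 on day 6, and both of these turned negative when libraries were scaled by their totals alone.

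DESeq2 called 2 of the 290 miRNAs on day 1, miR-375 and miR-451. Before adjustment, 24 miRNAs had an edgeR p under 0.05 on day 1 (11 higher, 13 lower) and 23 a DESeq2 p under 0.05. Changes were spread evenly around 0, where TMM scaling tends to set them, with a median of 0.01 and quartiles of -0.47 and 0.49. Their median SE was 0.61. Scaled by library totals alone, the median was 0.44. Of the 10 smallest p on day 1, 5 were positive and 5 negative changes, and 4 belonged to miRNAs with a mean of fewer than 10 counts a library.

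A different view is given by the miRNAs with the same direction in all 6 animals. On day 1, 4 miRNAs were higher in 6 of 6 animals (1.38% of 290) and 12 were lower in 6 of 6 (4.14%), 9 of them with a count of 0 in the library of RA2742F. For such a miRNA the exact permutation p was 0.0312, the smallest that 6 animals allow. None passed adjustment over 290 miRNAs (smallest adjusted p = 0.518). This says nothing about them, since a p of this size can pass only if most of the 290 share it. The 4 that were higher were miR-128a-3p, miR-328, miR-30a-5p and miR-423-3p. miR-128a-3p, of a family abundant in brain, was at 34.7, 83.1 and 107 TMM CPM before irradiation and at 91.3, 136 and 2240 on day 1, the 2240 being the library of RA2742F. Its log2 change was 1.71 (SE 0.69, edgeR adjusted p = 0.44) and ran from 0.65 to 2.54 over the alternatives. miR-328 had a median of 16.6 TMM CPM before irradiation and 36.4 on day 1, with a log2 change of 1.54 (SE 0.63, edgeR adjusted p = 0.44). 

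miR-30a-5p, which is abundant in epithelia, was at 493, 1090 and 1400 TMM CPM before irradiation, and at 1210, 1560 and 2990 on day 1. On day 2 miR-30a-5p in RA2116F stood for 3 counts (929 TMM CPM), only 0.15 above its start on the log2 scale. Over all animals it was at 929, 1700 and 4120 TMM CPM, and again every animal was above its own start. Its log2 changes were 0.86 (SE 0.52) and 0.83 (SE 0.52), with edgeR adjusted p = 0.661 and 1. On day 6 miR-30a-5p was higher in 5 of 6 animals, with a count of 0 in the shallow library of RA2743F. miR-423-3p was above its start in all 6 animals on days 1 and 2, by a mean of 0.20 ± 0.14 and 0.57 ± 0.33 (SD, n = 6). These were small changes with a narrow spread between animals, and the largest of day 2, 1.15, was in the shallow library of RA2116F.

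Among the 12 that were lower in all animals on day 1 was miR-215-5p, a p53-responsive miRNA typical of the intestinal lining and kidney. It was at 64.8, 138 and 653 TMM CPM before irradiation and at 0, 59 and 122 on day 1. The log2 change was -1.42 (SE 0.55, edgeR adjusted p = 0.44). By day 2 its median was 152 TMM CPM and by day 6 it was 218, but 3 of 6 animals were still below their start on each of these days. In the 30 NHPs of the other RDs miR-215-5p fell by 1.21 on the log2 scale on day 1 (edgeR adjusted p = 0.00347, lower in 23 of 30), and the difference between 8.5 Gy and these was -0.21 (SE 0.67). miR-16-2-3p, miR-32-5p and miR-151-5p, also lower in all 6, had log2 changes of -1.26, -1.28 and -0.93 and took their largest drops from RA2742F.

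**Figure D3:**
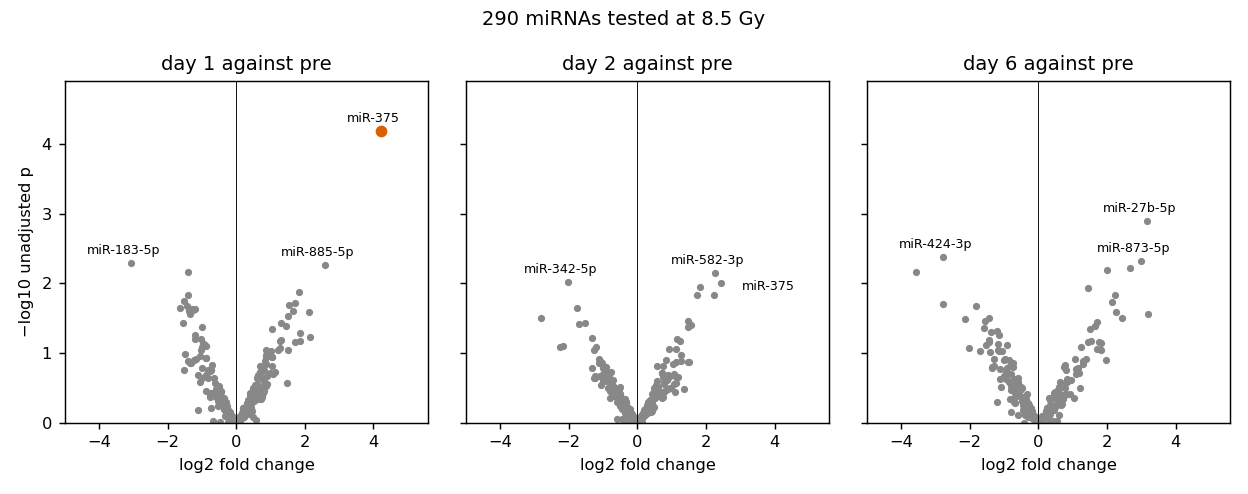
Log2 fold change (x axis) against -log10 of the unadjusted edgeR p (y axis) for the 290 miRNAs on days 1, 2 and 6 at 8.5 Gy, with the 3 smallest p of each day named. On day 1 miR-375 (4.22) is the only miRNA past the adjusted threshold and is drawn in orange, and on days 2 and 6 none is.

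On day 2, 0 of 290 miRNAs passed the edgeR test (0%). The count at an unadjusted p under 0.05 was 13 (8 higher, 5 lower), DESeq2 called 0 with 6 under an unadjusted 0.05, and the smallest edgeR adjusted p was 0.717. 3 miRNAs were higher in 6 of 6 animals (1.03%) and 5 were lower in 6 of 6 (1.72%).

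One of the latter was miR-150-5p, a miRNA abundant in mature B and T cells. Its level was 679, 1250 and 2720 TMM CPM before irradiation and 183, 437 and 929 on day 2. The groups overlapped between 679 and 929 TMM CPM. The changes on log2(TMM CPM + 1) were -3.34 in RA2685M, -3.21 in RA2475M and -2.57 in RA2743F, but only -0.22 in RA2318M, -0.04 in RA2742F and 0.00 in RA2116F, whose 929 stood for 3 counts. The count of 6 lower animals and its exact p thus rest on near-zero changes in 2 of them. The log2 change was -1.70 (SE 0.79, 0.307-fold), with an exact permutation p = 0.0312 and edgeR adjusted p = 0.935. It kept its sign in all 17 alternatives, from -2.20 to -1.21. In the 30 other NHPs miR-150-5p fell by 1.32 on day 2 (SE 0.31, edgeR adjusted p = 0.0112, lower in 24 of 30), a difference of -0.40 (SE 0.79) from 8.5 Gy. On day 6, miR-150-5p at 8.5 Gy was at 132, 976 and 8630 TMM CPM. The 8630 came from 49 counts in the shallow library of RA2743F, and 4 of 6 animals were below their start. The fitted day 6 change was -0.01 (SE 0.77). In the other NHPs it was -1.40 (SE 0.32, edgeR adjusted p = 0.00329), and the difference of 1.38 (SE 0.79) did not pass (edgeR adjusted p = 0.987).

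The remaining lymphocyte miRNAs gave a mixed picture. Of the 10 tested, 5 had a positive and 5 a negative change on day 2, with a median of -0.11 beside 0.02 for all 290. miR-342-3p, which lymphocytes express along with miR-150-5p, went from a median of 52.7 to 15.5 TMM CPM on day 2, lower in 5 of 6 animals (log2 change -1.19, SE 0.66, edgeR adjusted p = 1). Its other arm, miR-342-5p, averaged 3.12 counts a library and had a log2 change of -2.03 (SE 0.73, edgeR adjusted p = 0.717). Both arms thus lay below their start, with few counts behind the second. 6 miRNAs of myeloid cells and leukocytes in general were tested, with a median of 0.09 on day 2 and 0.31 on day 6 (-0.28 and -0.55 when scaled by library totals alone). On day 6, 4 of them had a positive and 2 a negative change. miR-223, the main miRNA of neutrophils and monocytes and one of the negative ones, was at 138, 586 and 795 TMM CPM before irradiation and at 28.9, 325 and 532 on day 6. It was lower in all 6 animals on that day (exact permutation p = 0.0312) with a log2 change of -0.75 (SE 0.52, edgeR adjusted p = 0.784), and the ranges overlapped widely. The values of RA2475M (28.9) and RA2743F (352) lay below what 3 counts stand for in their libraries (86.8 and 528 TMM CPM). The count of 6 lower animals and its exact p thus rest in part on very few reads.

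On day 6, 0 of 290 miRNAs passed the edgeR test (0%), 22 had an unadjusted p under 0.05 (13 higher, 9 lower), and the smallest adjusted p was 0.328. DESeq2 called 0, with 16 under an unadjusted 0.05. No miRNA was higher in 6 of 6 animals (0%) and 10 were lower in 6 of 6 (3.45%). The library of RA2743F, with 60 miRNAs, was at 0 for 9 of these 10. The median change of all 290 was -0.12.

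The smallest p on day 6 was that of miR-27b-5p, the rarer arm of the miR-23b/27b cluster, with a log2 change of 3.16 (SE 0.88, edgeR adjusted p = 0.328). It averaged 2.54 counts a library. Its levels were 0, 1.62 and 3.52 TMM CPM before irradiation and 0, 8.74 and 57.9 on day 6, higher in 4 animals, lower in 1 and at 0 both times in the other. miR-182, of the sensory and epithelial miR-183 cluster, was at 7.62, 21.2 and 52.2 TMM CPM before irradiation and at 17.7, 96.5 and 704 on day 6 (1.99, SE 0.68, edgeR adjusted p = 0.328). It was higher in 4 of 6 animals, and its highest value stood for 4 counts in the library of RA2743F. 6 of the 10 smallest p on day 6, and 7 of 10 on day 2, belonged to miRNAs with fewer than 10 counts a library on average.

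When the mean of the 3 days was set against pre-irradiation, 0 of 290 miRNAs passed (0%), with 17 at an unadjusted p under 0.05 (8 higher, 9 lower). miR-375 led with a log2 change of 2.97 (SE 0.79, edgeR adjusted p = 0.204). Without the 3 libraries with fewer than 100 miRNAs it passed (3.16, adjusted p = 0.0147). A test of any change over the 4 times also called 0 (0%), with 28 at an unadjusted p under 0.05 and a smallest edgeR adjusted p of 0.144, that of miR-380-3p. DESeq2 was not run for these tests.

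miR-380-3p belongs to the imprinted DLK1-DIO3 region, one of the largest miRNA clusters of mammals, which is expressed from the maternal chromosome and is active in brain, muscle and stem cells. Its level was 174, 548 and 2030 TMM CPM before irradiation, 930, 1270 and 2360 on day 1, 0, 380 and 1050 on day 2, and 57.9, 272 and 667 on day 6. Its log2 changes were thus 1.29 (SE 0.59), -0.78 (SE 0.58) and -1.20 (SE 0.58), with opposite signs on day 1 and later. 44 miRNAs of the region were tested, of 83 in the table and 74 with a count at 8.5 Gy. The 3 days are compared with the same pre-irradiation libraries. On day 1, 34 had a positive and 10 a negative change (median 0.44), beside 148 and 142 of all 290 (median 0.01). On day 2 it was 7 positive and 37 negative (median -0.48), beside 152 and 138 (median 0.02). On day 6 it was 9 and 35 (median -0.71), beside 124 and 166 (median -0.12). No member passed the adjusted threshold on any day. An unadjusted edgeR p under 0.05 was seen for 3, 2 and 6 of the 44, beside 24, 13 and 22 of all 290. In the same order, the medians in the 30 other NHPs were -0.29, -0.39 and -0.10. The members come from few shared transcripts and are not independent of each other.

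The plot of the region by animal shows how far these medians were shared. On day 1 the median change over the 44 miRNAs was 2.14 in RA2475M, with 43 of 44 higher, and 0.77 in RA2116F. It was 0 in RA2318M, -0.28 in RA2743F, -0.59 in RA2685M and -3.62 in RA2742F, whose library held 189 counts of the region. Over all 290 miRNAs the medians of the same animals were 0.10, 0.09, 0, -0.16, -0.21 and -2.41, with 156 of 290 higher in RA2475M. The positive day 1 median therefore rested on RA2475M, and without this animal it was -0.12 (21 positive, 23 negative). On day 2 the region's median was negative in 5 animals and 1.32 in RA2318M, where that of all 290 was 1.24. In RA2116F it was -3.65 beside -3.03 for all. On day 6 it was -3.33 in RA2743F, -1.94 in RA2475M, -0.99 in RA2685M, -0.52 in RA2742F, -0.30 in RA2116F and 0 in RA2318M. All 290 miRNAs had medians of -3.20, -1.28, -0.11, -0.17, -0.08 and 0.38 in the same order. The sign thus followed the whole library in 5 of the 6 animals on day 6, and the region lay below all 290 in each. These negative medians did not depend on 1 animal: over 17 alternatives they ran from -0.78 to -0.29 on day 2 and from -1.53 to -0.56 on day 6. Without the 3 libraries with fewer than 100 miRNAs the medians were 0.56, -0.47 and -0.63. Scaled by library totals alone, which moved the medians of all 290 to 0.44, -0.21 and -0.88, the region was at 0.88, -0.78 and -1.53.

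As summed levels, the region went from 3390, 7680 and 12500 TMM CPM before irradiation (lowest, median and highest) to 7840, 10400 and 15500 on day 1. It was at 2170, 5410 and 9670 TMM CPM on day 2 and at 1300, 4100 and 8590 on day 6. The 4 ranges overlapped. miR-409-3p, a well-counted member, was at 353, 1090 and 1740 TMM CPM before irradiation, 1080, 1620 and 3700 on day 1, 220, 699 and 1390 on day 2 and 0, 580 and 1130 on day 6. It was higher in 4 of 6 animals on day 1 and lower in 6 of 6 on days 2 and 6. Its log2 changes were 1.03 (SE 0.49), -0.51 (SE 0.49) and -0.91 (SE 0.50), and its smallest edgeR adjusted p on a single day was 0.552.

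**Figure D4:**
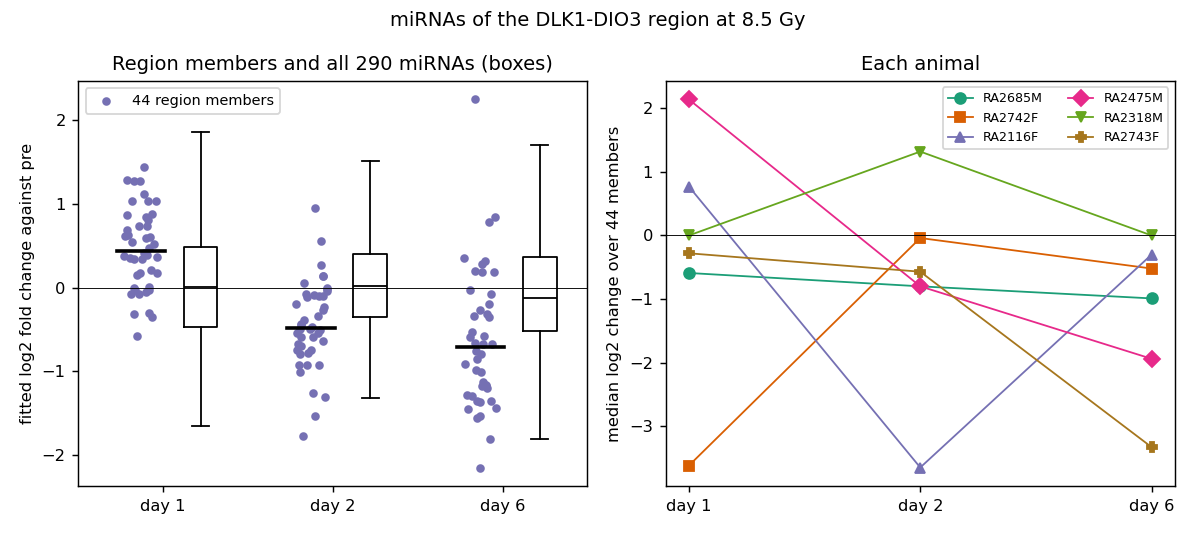
Left, fitted log2 fold changes of the 44 tested miRNAs of the DLK1-DIO3 region (points, with their median as a bar) beside boxes of all 290 miRNAs (median, quartiles and whiskers, farther values not drawn) on days 1, 2 and 6, and right, the median log2 change of the 44 miRNAs in each animal, in units of log2(TMM CPM + 1). On day 1 the 6 animals spread from -3.62 to 2.14, and on day 6 none is above 0, where the medians of all 290 miRNAs run from -3.20 to 0.38.

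Other tissue groups were described in the same way. In the epithelial miR-200 family, which keeps epithelial cells in their state, all 3 tested miRNAs had positive changes on day 1 with a median of 1.65. miR-141-3p was at 5.21, 22.2 and 104 TMM CPM before irradiation and at 0, 42.9 and 188 on day 1 (log2 change 1.5, SE 0.66, edgeR adjusted p = 0.446), higher in 4 of 6 animals. In the 30 other NHPs it rose by 1.82 (SE 0.34, edgeR adjusted p = 5.67e-05), and the difference was -0.34 (SE 0.84). miR-429-3p and miR-200a-3p had log2 changes of 1.65 (SE 0.70) and 1.85 (SE 0.91) at 8.5 Gy with 6.92 and 2.58 counts a library. The 5 platelet and endothelial miRNAs, such as miR-126 and miR-221-3p, all had negative changes on days 1 and 6 (medians -0.49 and -0.41) and none with an unadjusted p under 0.05. Of all 290, 142 and 166 were negative on these days. On day 2 the group had 2 positive and 3 negative changes (median -0.06). Its day 6 medians by animal ran from -4.84 in the shallow library of RA2743F to 0.63 in RA2318M, with RA2742F also above 0 (0.42). Scaled by library totals alone, its day 1 median was -0.03. The 10 tested miRNAs of the miR-30 family had medians of 0.19, 0.16 and -0.31 on days 1, 2 and 6, and the 14 of the let-7 family -0.17, 0.01 and -0.10. Scaled by library totals alone, the let-7 median changed sign on days 1 and 2, and that of the miR-30 family was at 0 on day 2.

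Among 7 p53-responsive miRNAs, which the damage-sensing factor p53 induces, medians were 0.22, 0.00 and 0.27 on days 1, 2 and 6, and the last turned negative under scaling by library totals. The classical p53 target miR-34a-5p had only 2.04 counts a library at 8.5 Gy. On day 6 its log2 change was 0.45 (SE 0.97) there, against 2.61 (SE 0.46, edgeR adjusted p = 3.91e-05) in the 30 other NHPs, where it was higher in 19 and lower in 4. The difference of -2.26 (SE 1.22) did not pass (edgeR adjusted p = 0.987), and at this depth the level of miR-34a-5p could not be followed in single animals: on day 6 it had a count in 1 of 6.

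Whether the response at 8.5 Gy differed from that at the lower RDs was tested for every miRNA. 0 of 290 passed on day 1, 0 on day 2 and 0 on day 6, with 10, 2 and 11 at an unadjusted edgeR p under 0.05 and smallest adjusted p of 0.899, 0.999 and 0.126. DESeq2 was not run for these differences. The test of 30 other NHPs called 13 miRNAs on day 1 (8 higher, 5 lower), 1 on day 2 and 2 on day 6, and a smaller number of calls in 6 animals is no evidence of a smaller response. For miR-375 on day 1 the change was 4.22 at 8.5 Gy and 3.41 (SE 0.39) in the others, where it was higher in 27 of 30, and the difference was 0.81 (SE 0.92, edgeR adjusted p = 0.899). The mean log2 changes per RD were 4.06 ± 2.65 at 6.0 Gy, 3.16 ± 1.95 at 6.5 Gy, 3.90 ± 2.76 at 7.0 Gy, 3.30 ± 2.17 at 7.5 Gy, 0.38 ± 3.83 at 8.0 Gy and 2.42 ± 4.14 at 8.5 Gy (SD, n = 6 each). All RDs therefore had a positive mean, and those at 8.0 and 8.5 Gy had the widest spread.

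The 4 smallest p of the difference on day 1 belonged to miR-451, miR-128a-3p, miR-409-3p and miR-144. miR-451 had a log2 change of -1.42 at 8.5 Gy and of 0.25 in the other NHPs, where 16 were higher and 14 lower, a difference of -1.66 (SE 0.58, edgeR adjusted p = 0.899). For miR-144 the difference was -1.5 (SE 0.60), for miR-409-3p 1.65 (SE 0.64) and for miR-128a-3p 1.56 (SE 0.58), each with edgeR adjusted p = 0.899. Each kept its sign in all 11 alternatives run for it, but none of them passed with the animal as a block. At 7.5 Gy miR-128a-3p had a mean day 1 change of 1.74 ± 2.42, beside 1.54 ± 2.2 at 8.5 Gy (SD, n = 6 each), with 6 of 6 animals higher at both. Its mean was -0.38, -0.24, -0.74 and 0.32 at 6.0, 6.5, 7.0 and 8.0 Gy. On day 6 the smallest p belonged to miR-27b-5p, with a difference of 3.97 (SE 1.09, edgeR adjusted p = 0.126).

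**Figure D5:**
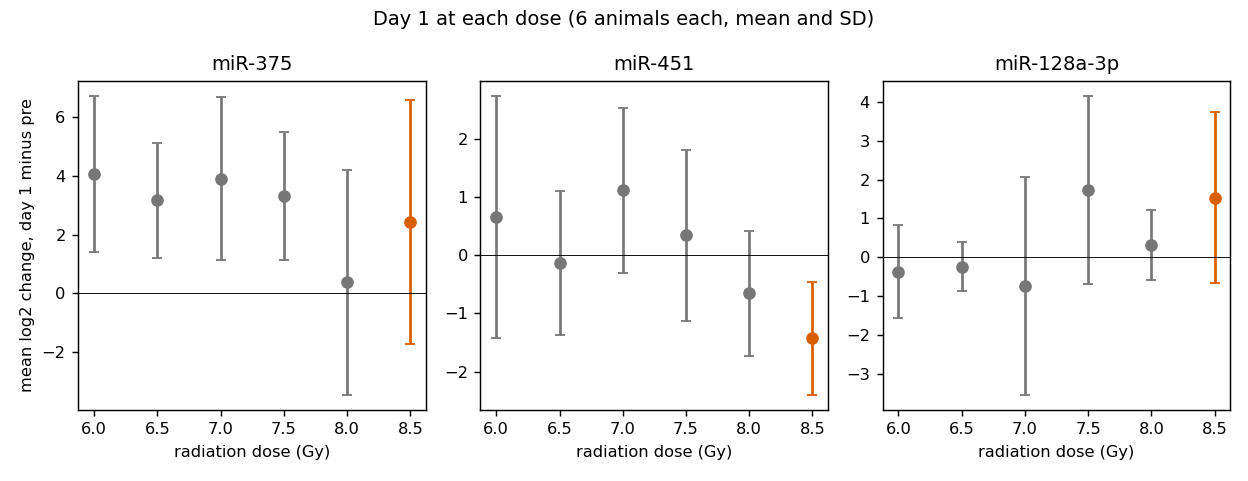
Mean log2 change from pre-irradiation to day 1 (y axis; error bars are SD over 6 animals) against RD in Gy (x axis) for miR-375, miR-451 and miR-128a-3p, with 8.5 Gy in orange. miR-375 has a positive mean at every RD, 2.42 at 8.5 Gy, and miR-451 has its lowest mean, -1.43, at 8.5 Gy. miR-128a-3p has means of 1.74 at 7.5 Gy and 1.54 at 8.5 Gy.

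Males and females at 8.5 Gy were compared by the difference of their mean change after irradiation. 0 of 290 miRNAs passed, with 2 at an unadjusted edgeR p under 0.05 and a smallest adjusted p of 0.997, and DESeq2 was not run. With 3 animals of each sex this comparison had little power. RA2743F, the single survivor, had the highest miR-375 level of day 1 (5720 TMM CPM) and the lowest number of miRNAs on day 6 (60). One animal allows no test of survival at this RD.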

How the data were processed

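Serum small RNA libraries (TruSeq small RNA kit, NextSeq instrument) of 36 NHPs were sequenced, demultiplexed with bcl2fastq2 and mapped to NHP miRNAs of miRBase in Genomics Workbench by the authors, who deposited the raw count of each miRNA per library. Each of the 144 count columns was matched to its sample by the name in its header. The pre-irradiation library titled RA2816M (another RD) carries RA2616M in its description and header and was used under its title. RD, time, sex, survival and animal were read from the labels. The analysis used edgeR 4.0.16 under R 4.3.3 (quasi-likelihood F tests, TMM factors over all 144 libraries, animal and time as terms on the 24 libraries at 8.5 Gy) and Benjamini-Hochberg adjustment over the 290 miRNAs detected in 40% or more of all libraries, at a threshold of 0.05. The difference from other RDs was a day by RD term over all 144 libraries. Changes over animals used log2(TMM CPM + 1) and exact two-sided sign-flip tests (64 flips). Pairing came from the animal codes in the labels. The residuals of 2 libraries had a mean r of 0.0846 within animals (36 pairs) and of -0.0361 between animals (240 pairs).

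The miRNAs named were drawn from several groups, and not every member of a group is named. The groups were the calls, the 10 smallest p per day and those with the same direction in all 6 animals (mean of at least 10 counts, at most 10 per day). They also took in the 12 most abundant, members of the lists, miRNAs the paper names as markers and the 10 smallest p of the difference from other RDs. Named outside this rule, after their values were seen, were the miRNAs of the unfiltered test in the closing observations. Members and lists were chosen with earlier results of these data known. Alternatives were other scalings and filters, DESeq2 1.42.0, no block, 1 fit over all libraries, a pseudocount of 10, and leaving out each animal. Others were the haemolysis score as a covariate and leaving out libraries with under 0.1 of the median total of the series. For the difference from other RDs, RA2265F and RA2694M were also left out. Leaving out libraries with fewer than 100 miRNAs was chosen after seeing the data. The fits were tested on simulated counts. miRNAs listed without an arm are printed as listed.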

Additional observations from a re-analysis of the deposited data

Results flagged for a closer look

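In each group of 6 animals, the highest or lowest value was compared with its nearest neighbour relative to the range of the group. Of 69 groups tested, 21 held an animal that stood far from the others by this measure. Its cut-off passes about 1 in 20 groups of independent, normally distributed values. The groups here share libraries, and 53 of them are changes of miRNAs chosen from the same data, so no excess over chance can be read. By animal the 21 were 8 in RA2742F, 6 in RA2116F, 3 in RA2743F and 2 each in RA2318M and RA2475M. Of the library measures, the total count stood apart before irradiation in RA2475M (2893988), on day 1 in RA2116F (1106427) and on day 6 in RA2116F (2195500). The number of detected miRNAs stood apart on day 2 in RA2116F (65), and the haemolysis score on day 1 in RA2742F (11.16) and on day 6 in RA2743F (-3). Neither score measures haemolysis: in the first the denominator, miR-23a-3p, had a count of 0 so that the pseudocount set the value, and in the second miR-451 had 3 counts.

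Among the log2 changes, RA2742F on day 1 stood below the other animals for miR-1180-3p (-5.82), miR-151-5p (-8.49), miR-16-2-3p (-7.88), miR-215-5p (-7.15), miR-32-5p (-6.57) and miR-7186-5p (-4.45), and above them for miR-128a-3p (5.97). This is the library with 86 miRNAs. RA2116F stood apart on day 2 for miR-375 (-7.04), miR-409-3p (-1.72) and miR-6529-5p (-11.18), in its library with 65 miRNAs. RA2743F stood apart on day 6 for miR-409-3p (-10.17) and miR-6529-5p (-10.58), in its library with 60 miRNAs. On the same day RA2475M stood below the others for miR-223 (-2.21), and RA2318M stood below them for miR-122a-5p (-4.76) and above them for miR-424-3p (2.48).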

How the results depend on the processing

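The single call of day 1 became 6 without a filter on low counts, 2 with DESeq2, 3 with no replicate block for the animal, 2 without the libraries with fewer than 100 miRNAs, and 0 to 1 when each animal was left out in turn. On day 2 the filter on the 24 libraries alone gave 1 call, miR-152-5p, with a mean of 0.958 counts a library, and on day 6 the fit with no block gave 1, miR-324-3p (5.83, adjusted p = 0.0283). The mean of the days had 1 call without a filter, 1 with no block and 1 without the libraries with fewer than 100 miRNAs. The test over all times had 1 call with library totals alone, 13 without a filter, 4 with no block, 1 without the libraries with fewer than 100 miRNAs, and 0 to 1 when each animal was left out. With no block, 2 differences from the other RDs passed on day 1, miR-128a-3p (2.36, adjusted p = 0.0079) and miR-30a-3p (3.98, adjusted p = 0.00179), and 1 on day 6, that of miR-324-3p. The causes were not tested. miR-375 on day 1 kept its sign in 17 of 17 alternatives (3.40 to 4.84) and passed in 14. DESeq2 gave miR-122a-5p on day 6 a log2 change of 1.54 where edgeR gave -3.58 at a mean of 1.04 counts. Without RA2742F the red blood cell median of day 1 was -1.05, and with library totals alone that of day 6 was -0.81. Leaving out every library of RA2265F and RA2694M, the animals at other RDs that hold a pair of identical libraries, changed no call of the difference tests. A count of 0 in the shallow libraries, and any miRNA with under 10 counts on average, limited what could be seen.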

Other observations

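Some miRNAs too rare for the filter were read mainly on day 1. Without the filter, edgeR called miR-216a-5p, miR-802, miR-217, miR-129-5p and miR-196a-5p on day 1 beside miR-375, and these were singled out after their values were seen. miR-216a-5p and miR-217 are abundant in the acinar cells of the pancreas, the tissue that also holds the islets in which miR-375 is abundant. miR-216a-5p had 2 counts in 1 of 6 libraries before irradiation at 8.5 Gy, 65 counts in 4 of 6 on day 1, 2 counts on day 2 and 0 on day 6. miR-217 had 0 counts before irradiation, 19 counts in 3 of 6 libraries on day 1, 1 on day 2 and 0 on day 6. For miR-802 it was 0, then 21 counts in 4 of 6 libraries, then 2 and 0. In RA2685M, RA2116F and RA2743F all of these 3 miRNAs had counts on day 1, and in RA2742F and RA2318M none had.

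The libraries of the 30 other NHPs held the same 3 miRNAs at the same time. miR-216a-5p had 2 counts before irradiation, 197 counts in 19 of 30 libraries on day 1, 51 on day 2 and 7 on day 6. miR-217 had 3, 65 (in 12 of 30 libraries), 9 and 0 counts, and miR-802 had 1, 49 (in 10 of 30 libraries), 16 and 0. They had a count in 29.9%, 16% and 15.3% of the 144 libraries, under the 40% required for the test. Counts this low in part of the libraries allow no fold change, and depth differed between libraries.

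The remaining miRNAs of the unfiltered test were less evenly spread. Of 24 counts of miR-129-5p on day 1 at 8.5 Gy, 23 came from RA2742F. miR-196a-5p had 39 counts in 5 of 6 libraries before irradiation, 0 on day 1, 8 in 4 libraries on day 2 and 1 on day 6, whereas the other NHPs had 36, 33, 26 and 29 counts at these times.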
